A study of Mus musculus with 8 samples.

Results

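Fatty acid activation and beta-oxidation were read here as 37 genes that carry a fatty acid from its acyl-CoA ester through the carnitine shuttle into the mitochondrial cycle, with the auxiliary enzymes, the peroxisomal branch and the regulator Ppara. Each gene was represented by the probe set that names this gene and no other and has the highest mean log2(signal + 26) over the 8 arrays. Of the 37 genes, 35 had such a probe set and 34 of these passed the filter on dim signals, out of 11662 genes tested in all. Acsl1 and Cpt1b had no probe set naming them alone and were not analysed here, and Acsl6 fell below the filter. The members were listed by their function, with earlier results of these arrays known.

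The arrays came from the subcutaneous fat of 8 male mice from a series on diabetic mice, labelled as 8 weeks old and gavaged on 5 days per week for 10 weeks. The placebo group held 4 mice (numbers 6, 8, 10 and 14), which received water, and the other group held 4 mice (numbers 5, 9, 11 and 13), which received niacin-bound chromium (NBC), in which nicotinic acid holds trivalent chromium, in water at 10 mg per kg body weight. Diabetes and sex were shared by both groups, the sources used here give neither the strain nor the cause of the diabetes, and each mouse gave 1 Affymetrix Mouse Genome 430 2.0 array. The comparison asked which transcripts in subcutaneous fat differ when NBC is given by mouth. Below, signals are given in the order of the mouse numbers above, placebo first.

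A fatty acid is activated to its acyl-CoA by a long-chain acyl-CoA synthetase, handed to carnitine at the outer mitochondrial membrane, carried across the inner membrane and returned to CoA. Each turn of the mitochondrial cycle then oxidises, hydrates, oxidises again and cleaves the chain, releasing acetyl-CoA and passing electrons through the electron transfer flavoprotein to ubiquinone. White adipocytes mostly store and release fatty acids, while brown and beige adipocytes and muscle fibres burn them, and peroxisomes shorten very long and branched chains in many tissues.

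The white adipocyte markers Adipoq, Fabp4, Lep and Lpl were bright on all arrays, and the summed signal of the 7 white adipocyte markers measured (of 9) was 501649 to 621402 in placebo and 496545 to 596687 in NBC mice. Skeletal muscle RNA differed between the arrays. The summed signal of 12 muscle markers was 5118 to 23708 in placebo mice and 17816 in NBC mouse 9, but 154512 to 168997 in NBC mice 5, 11 and 13. Gapdh probe sets near the 3' and the 5' end of the transcript report on RNA integrity, and their ratio (3' over 5') was 0.924 to 1.04 in placebo mice and 1.47, 0.844, 1.28 and 1.11 in NBC mice 5, 9, 11 and 13.

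Transcripts of the pathway lay slightly lower in the supplemented mice. Of the 34 members tested, 31 had a log2 difference (NBC minus placebo) below 0 and 3 above, with a median of -0.137, where 51.5% of all genes tested lay below 0 and their median was -0.0064. The differences were small and ran from -0.33 (Crat) to 0.059 (Acsl4). The 4 placebo and the 4 NBC values did not overlap for 5 members, Crot, Acadm, Acadl, Ech1 and Etfa, each lower in NBC mice by 12.9% to 15.0% of the placebo mean. That is 14.7% of the members, where 3.93% of all genes tested had no overlap (2.23% with NBC lower and 1.7% with NBC higher). Without placebo mouse 14 or without NBC mouse 9 there were 8 such members, where 6.93% and 10.8% of all genes had no overlap.

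With limma and Benjamini-Hochberg adjustment over 22519 probe sets, no member was called at an adjusted p under 0.05 (smallest adjusted p = 0.778), and 0.0% of all probe sets were. Without NBC mouse 9, 18 probe sets passed, and 0 of them were among the probe sets that represent the members. Further probe sets of the members were not looked up in that fit. At an unadjusted p under 0.05 there were 2 members, Crat and Ech1, and with 1 mouse left out there were 0 (without placebo mouse 6, 8 or 10 or NBC mouse 5 or 11), 1 (without placebo mouse 14 or NBC mouse 13) or 5 (without NBC mouse 9). With all 8 mice, the 2 members are 5.88%, close to the 5.44% of all genes tested (2.71% with NBC lower). With 1 mouse left out, the share of all genes at that p was not computed. The counts of members there, the 5 without NBC mouse 9 included, thus say nothing particular to the members. The members were listed with earlier results of these arrays known, so the shared direction is described and not tested. In bulk fat, fewer cells of a type and less RNA per cell cannot be told apart.

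**Figure D1:**
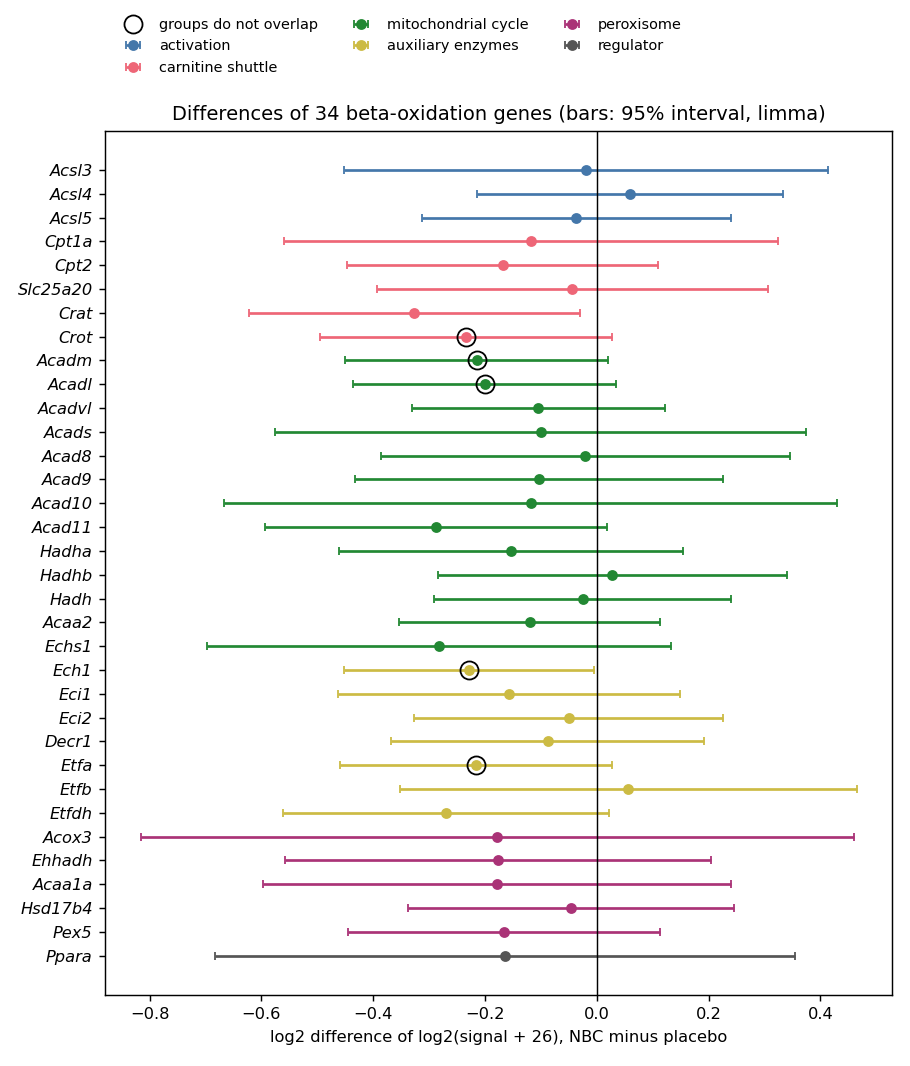
Log2 difference of log2(signal + 26), NBC minus placebo, for the 34 members tested, coloured by step. Points are estimates of limma over 4 placebo and 4 NBC mice, bars are 95% intervals, and open rings mark the 5 members whose groups do not overlap. Of the 34 points, 31 lie left of 0, and the bars of Crat and Ech1 stay left of 0.

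The starts of the genes of the 5 members without overlap are shown to let a reader compare the control regions of transcripts that lay lower together. RefSeq promoter windows (GRCm38.p6, 250 bases before to 50 after a start) were found for 29 of the 34 members tested, 31 windows in all. The 250 bases before the start are printed below, 5′ to 3′ on the gene's strand. Capitals mark the GC box GGGCGG, the CCAAT box CCAAT and the nuclear receptor half-site AGGTCA, each searched on both strands, so that a motif on the opposite strand appears as its reverse complement. The 3 motifs do not overlap one another in these stretches.
Acadm, chr3:153944644-153944893, minus strand: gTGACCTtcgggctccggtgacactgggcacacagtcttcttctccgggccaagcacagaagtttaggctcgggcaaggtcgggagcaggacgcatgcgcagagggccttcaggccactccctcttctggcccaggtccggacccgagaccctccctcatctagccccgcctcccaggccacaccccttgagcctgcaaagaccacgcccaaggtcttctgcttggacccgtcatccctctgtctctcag
Acadl, chr1:66863310-66863559, minus strand: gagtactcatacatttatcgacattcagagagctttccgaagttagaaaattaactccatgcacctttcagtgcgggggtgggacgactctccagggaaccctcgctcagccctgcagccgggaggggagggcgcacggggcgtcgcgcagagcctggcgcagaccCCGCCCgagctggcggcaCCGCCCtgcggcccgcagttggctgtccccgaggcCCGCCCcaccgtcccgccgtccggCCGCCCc
Crot, chr5:8997147-8997396, minus strand: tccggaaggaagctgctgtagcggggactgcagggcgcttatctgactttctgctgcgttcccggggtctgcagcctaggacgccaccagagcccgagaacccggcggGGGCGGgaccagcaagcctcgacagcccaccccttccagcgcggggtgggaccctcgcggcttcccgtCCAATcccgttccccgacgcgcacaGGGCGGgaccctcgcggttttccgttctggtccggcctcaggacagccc
Ech1, chr7:28825088-28825337, plus strand: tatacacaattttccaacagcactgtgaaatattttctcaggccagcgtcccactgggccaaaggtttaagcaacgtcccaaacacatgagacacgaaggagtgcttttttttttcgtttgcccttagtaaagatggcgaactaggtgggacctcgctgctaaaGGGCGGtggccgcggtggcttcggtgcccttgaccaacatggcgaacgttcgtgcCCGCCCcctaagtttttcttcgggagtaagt
Etfa, chr9:55512244-55512493, minus strand: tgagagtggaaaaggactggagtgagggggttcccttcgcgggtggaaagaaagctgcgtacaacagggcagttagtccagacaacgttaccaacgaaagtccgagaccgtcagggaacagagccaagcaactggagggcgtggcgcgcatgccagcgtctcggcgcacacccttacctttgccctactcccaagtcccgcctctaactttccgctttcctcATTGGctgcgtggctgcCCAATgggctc
Acadl held 4 GC boxes within 84 bases of its start, Crot and Ech1 2 each, and Acadm and Etfa none. Etfa held 2 CCAAT boxes and Crot 1, and Acadm a half-site at the far end of its stretch. Over the whole windows, GGGCGG was present in 25 of the 31 member windows (80.6%), where 35.7% of all 32851 windows held it, and CCAAT in 15 (48.4%, against 37.4%). The member windows were also richer in G and C, with a median of 60.7% against 52.7% of bases and 18 against 7 CpG dinucleotides. The TATA box TATAAA was in 0 of the 31 (13.6% of all windows). The half-site AGGTCA was in 4 (12.9%, against 16.3%), those of Acadm, Acadvl, Cpt1a and Echs1. Peroxisome proliferator-activated receptors bind a pair of such half-sites spaced by 1 base. The exact pair, an AGGTCA on each side of 1 free base, was in 0 of the 31 member windows and in 0.0396% of all windows. With any base allowed at the fourth place of each half-site it was again in 0 (0.381% of all windows). Of the other motifs searched, the NRF1 motif (GCGC on both sides of AT) was in 3 member windows, those of Acad10, Etfdh and Ppara (9.68%, against 0.971%). The extended half-site of the estrogen-related receptors (AGGTCA with TCA before it) and the cAMP response element (TGAC followed by GTCA) were in 0 (0.423% and 1.79% of all windows). A match is a description of these letters in this window and says nothing of binding.

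Activation, the attachment of CoA to a fatty acid, showed little difference in the members that could be tested, which left out Acsl1 and Acsl6. The median of its 3 members tested was -0.020 (-0.053 to 0.048 with 1 mouse left out), and 2 of them lay below 0. Acsl5, a synthetase of the mitochondrial outer membrane and the endoplasmic reticulum, read 7859, 9213, 6765 and 8063 in placebo and 7869.5, 7418, 7636 and 8000.0 in NBC mice. Its values overlapped widely and differed by -0.037 (SE 0.12) on the log2 scale. Acsl4, which prefers arachidonic acid, read 4433, 5033, 4577 and 5097 in placebo and 5436, 4868, 5366 and 4316 in NBC mice, and the log2 difference was 0.059 (SE 0.12). NBC mice 5 and 11 were its highest and NBC mouse 13 its lowest. The other 2 Acsl4 probe sets kept lay below 0 (-0.34, SE 0.28, and -0.015, SE 0.25), so its direction depended on the probe set. Acsl3, a synthetase of lipid droplets, differed by -0.020 (SE 0.19). Acsl6, best known from brain, read 300.1, 317, 70.2 and 153 in placebo and 44.4, 31.9, 55.4 and 62.8 in NBC mice. All NBC values were below all placebo values, but most lay under the filter limit of 275. Without the filter its log2 difference was -1.51 (SE 0.41), with a limma adjusted p = 0.72. The other Acsl6 probe set, also dim, pointed the other way (0.91, SE 0.57).

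The carnitine shuttle moves activated chains into the mitochondrion. All 5 members tested lay below 0, with a median of -0.17. Cpt1a is the outer membrane transferase that malonyl-CoA restrains and the main isoform of liver, while its muscle counterpart Cpt1b could not be read. Cpt1a read 5882, 5381, 5072 and 5852 in placebo and 4038, 6629, 3953 and 6398 in NBC mice. NBC mice 5 and 11 read lowest of all 8 mice and NBC mice 9 and 13 highest, so the log2 difference of -0.12 (SE 0.20) averaged opposite values. Both other Cpt1a probe sets kept gave small differences above 0 (0.086, SE 0.11, and 0.064, SE 0.12). Cpt2, which returns the chain to CoA on the inner membrane, averaged 9612 ± 1225 for placebo and 8510.2 ± 468 for NBC (SD, n = 4 mice per group). Its log2 difference was -0.17 (SE 0.12), with overlap. Slc25a20, the translocase that exchanges acylcarnitine for carnitine, read 13920.1, 14934, 15040.4 and 14015 in placebo and 17257, 10618, 14253 and 14845 in NBC mice. NBC mice 5 and 9 were the extremes of all 8 mice, and the groups differed by -0.044 (SE 0.15). Without NBC mouse 9 the difference was 0.090. Its other probe set gave -0.32 (SE 0.14).

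Of the carnitine acyltransferases for shorter chains, Crat makes acetylcarnitine in mitochondria and Crot handles medium chains leaving peroxisomes. Crat read 8589.9, 8671, 9648 and 6925 in placebo and 6488, 7072, 6223 and 7031 in NBC mice. Its NBC mice were low except that mice 9 and 13 stood just above placebo mouse 14. Its mean was 20.7% lower in NBC mice, and the log2 difference was -0.33 (SE 0.13) with limma's unadjusted p = 0.0339 and adjusted p = 0.778. The other Crat probe sets kept gave -0.026 (SE 0.16) and -0.25 (SE 0.29). Crot read 4056, 4087, 4062 and 4710.3 in placebo and 3202, 3874, 3754 and 3542 in NBC mice. All NBC values lay below all placebo values, and its mean was 15.0% lower. The log2 difference was -0.23 (SE 0.12) with a limma adjusted p = 0.78.

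**Figure D2:**
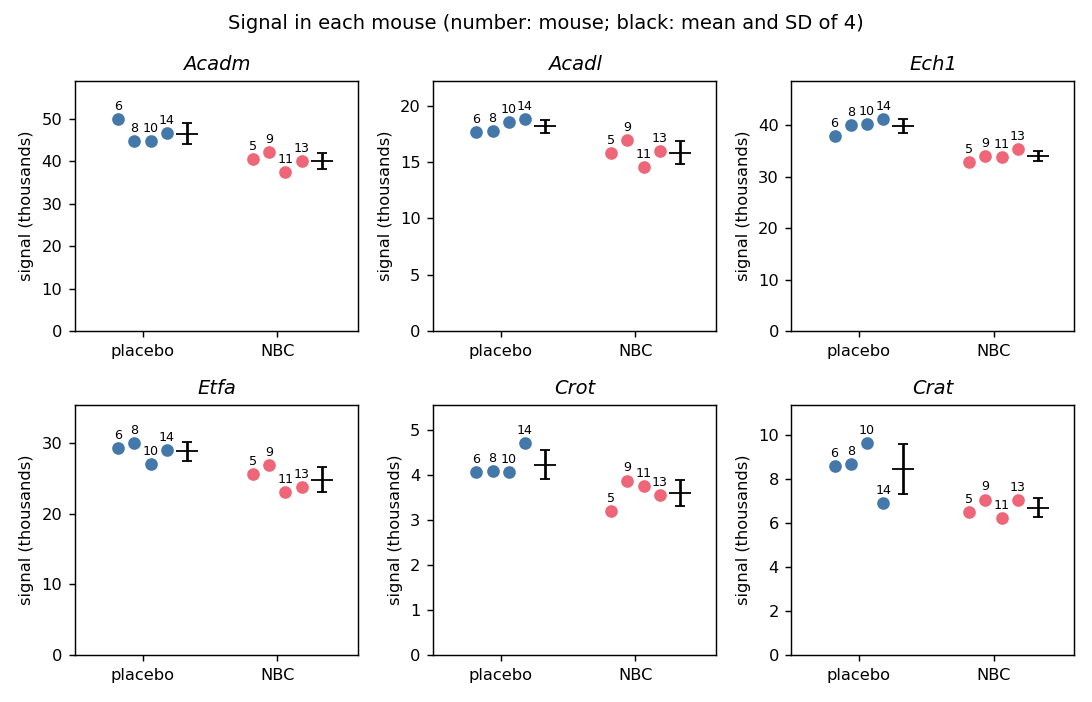
Signal on a linear scale in each mouse, labelled by mouse number, for the 5 members without overlap and Crat, in 4 placebo (blue) and 4 NBC mice (red). Black marks show the mean and SD of 4 mice. For Acadm the placebo mice lie at 44753 to 49941 and the NBC mice at 37441 to 42226, and for Crat placebo mouse 14 lies among the NBC mice.

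In the mitochondrial cycle 12 of 13 members lay below 0, with a median of -0.12. The acyl-CoA dehydrogenases open each turn, and Acadvl, Acadl, Acadm and Acads take very long, long, medium and short chains. Acadm read 49941, 44847, 44753 and 46679.5 in placebo and 40641, 42226, 37441 and 40085 in NBC mice. Acadl read 17636, 17730.2, 18508 and 18787 in placebo and 15788, 16979.7, 14530.0 and 15989.9 in NBC mice. For both genes every NBC mouse lay below every placebo mouse, and NBC mouse 11 was the lowest. The means were 13.9% and 12.9% lower in NBC mice, log2 differences of -0.22 (SE 0.10) and -0.20 (SE 0.10), with limma adjusted p of 0.778 and 0.781. The 95% intervals reached from -0.45 to 0.020 for Acadm and from -0.44 to 0.035 for Acadl. Acadvl averaged 13328 ± 345 for placebo and 12397 ± 545 for NBC (SD, n = 4 mice per group), and the log2 difference was -0.10 (SE 0.10). Its groups overlapped by NBC mouse 11 alone. Acads read 8784, 8069, 11049.5 and 8906 in placebo and 11026, 6582, 10869 and 6682 in NBC mice. NBC mice 9 and 13 were its lowest, while NBC mice 5 and 11 lay beside placebo mouse 10, and the log2 difference was -0.10 (SE 0.21).

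Of the related dehydrogenases, Acad8 acts in valine breakdown and Acad9 also in the assembly of complex I. Among the probe sets used, Acad11 showed the largest log2 difference of the 13 members, -0.29 (SE 0.14), and read 8344, 8805, 10074 and 9241 in placebo and 7943, 8745, 7007 and 6317 in NBC mice. NBC mice 13, 11 and 5 were low and NBC mouse 9 lay inside the placebo range. Its other probe set kept gave the same value to 2 decimals (-0.29, SE 0.13). Acad8 (-0.021, SE 0.16), Acad9 (-0.10, SE 0.15) and Acad10 (-0.12, SE 0.24) overlapped between groups.

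The later reactions of the cycle were read from 5 members. Hadha and Hadhb are the subunits of the trifunctional protein, which completes the turn for long chains. Hadha averaged 12054 ± 814 for placebo and 10913 ± 1737 for NBC (SD, n = 4 mice per group), and the log2 difference was -0.15 (SE 0.14). Hadhb differed by 0.028 (SE 0.14) in its brightest probe set, while another gave -0.12 (SE 0.12) and a dim one 0.42 (SE 0.28). Hadh, the hydroxyacyl-CoA dehydrogenase of shorter chains, read 75337, 66989, 74396 and 60666 in placebo and 71990.1, 70778, 63883 and 65239 in NBC mice. These values overlapped throughout and differed by -0.025 (SE 0.12). The 2 other Hadh probe sets gave -0.29 (SE 0.13) and -0.38 (SE 0.21), and in the former, 1460184_at, NBC mouse 9 (29170) lay among the placebo mice (27065 to 30206) while NBC mice 5, 11 and 13 read 21072, 21149 and 22873. Echs1, the short-chain enoyl-CoA hydratase, read 13474, 13584, 14971 and 14481 in placebo and 9129.5, 16845, 10528 and 11187 in NBC mice. NBC mice 5, 11 and 13 lay below all placebo mice and NBC mouse 9 above them, and the log2 difference was -0.28 (SE 0.18).

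Acaa2, the mitochondrial thiolase that cleaves acetyl-CoA from the chain, gave 3 probe sets that all lay below 0 by unequal amounts. The brightest, 1428146_s_at, averaged 18493 ± 933 for placebo and 17012 ± 739.9 for NBC (SD, n = 4 mice per group), and the log2 difference was -0.12 (SE 0.10) with overlap. Probe set 1428145_at read 11504, 11323, 10529.5 and 11009 in placebo and 8117, 9200.4, 9359 and 8261 in NBC mice. The groups did not overlap there, the NBC mean was 21.2% lower, and the log2 difference was -0.35 (SE 0.11), with limma's unadjusted p = 0.0102 and adjusted p = 0.73. Probe set 1455061_a_at differed by -0.58 (SE 0.24) with overlap, and NBC mice 5 and 11 (3924 and 4561) stood lowest. Over all members, 24 further probe sets passed the filter beside the 34 used. Of these, 18 lay below 0, their median was -0.16, and only 1428145_at of Acaa2 had no overlap. That is 4.17% of them, near the 3.93% of all genes tested.

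**Figure D3:**
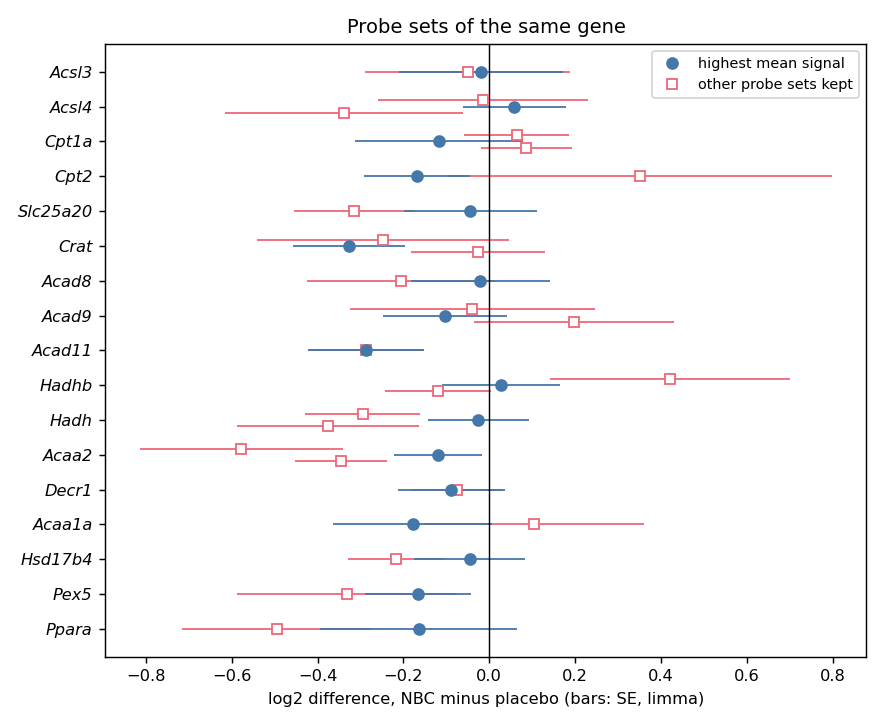
Log2 difference (NBC minus placebo) of each probe set kept, for the 17 members with more than 1, as filled circles for the probe set with the highest mean signal and open squares for the others. Bars are standard errors of limma (n = 4 mice per group). The 3 Acaa2 probe sets all lie left of 0, while those of Cpt1a lie on both sides.

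The auxiliary enzymes prepare double bonds for the cycle and collect its electrons. Of 7 members, 6 lay below 0, with a median of -0.16. Ech1, which shifts a pair of double bonds in dienoyl-CoA, read 37884, 40002, 40266 and 41144 in placebo and 32767, 34047, 33833 and 35284 in NBC mice. Every NBC mouse lay below every placebo mouse, and the spread within a group was narrow. Its mean was 14.7% lower in NBC mice, and the log2 difference was -0.23 (SE 0.10) with limma's unadjusted p = 0.0465 and adjusted p = 0.778. The enoyl-CoA isomerases Eci1 (-0.16, SE 0.14) and Eci2 (-0.050, SE 0.12) and the dienoyl-CoA reductase Decr1 (-0.088, SE 0.12) overlapped between groups. In each of the 3, NBC mice 9 and 13 were the lowest of all 8 mice.

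The electron transfer flavoprotein is built of Etfa and Etfb and is oxidised by Etfdh. Etfa read 29342, 30083, 27022 and 29009 in placebo and 25630.5, 26979, 23063 and 23781 in NBC mice. The groups were apart by a narrow margin, between placebo mouse 10 and NBC mouse 9. Its mean was 13.9% lower, and the log2 difference was -0.22 (SE 0.11) with a limma adjusted p = 0.78. Etfb read 27623, 23576, 23411 and 23940.1 in placebo and 32387, 19249, 30558 and 22414 in NBC mice. NBC mice 5 and 11 were the highest and NBC mice 9 and 13 the lowest of all 8 mice, and the log2 difference was 0.057 (SE 0.18). Etfdh read 8683, 8106, 8319 and 8542 in placebo and 6032, 8287, 6374 and 7409 in NBC mice. Here NBC mice 5 and 11 were the lowest and NBC mouse 9 lay at the placebo level, with a log2 difference of -0.27 (SE 0.13). The 2 subunits Etfa and Etfb thus ordered the NBC mice differently.

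The peroxisomal branch had 5 of 5 members below 0 and a median of -0.18, and all 5 overlapped between groups. The oxidase Acox3 acts on branched chains and was dim, with 402 ± 76.4 for placebo and 372 ± 159.5 for NBC (SD, n = 4 mice per group). Ehhadh and Hsd17b4 are the bifunctional enzymes that hydrate and oxidise the chain. Hsd17b4 read 23533, 24032, 25056 and 22426 in placebo and 24619, 21736, 26807 and 19499 in NBC mice, and differed by -0.046 (SE 0.13). Its other probe set kept gave -0.22 (SE 0.11). Ehhadh averaged 2314 ± 277 for placebo and 2062 ± 382 for NBC (SD, n = 4 mice per group), and the log2 difference was -0.18 (SE 0.17). Acaa1a, the peroxisomal thiolase, read 1478, 1546, 2287 and 1449.9 in placebo and 1614, 1149, 1673 and 1476 in NBC mice. Placebo mouse 10 was the highest and NBC mouse 9 the lowest, and the log2 difference of -0.18 (SE 0.19) was 0.10 (SE 0.26) in its other probe set. Pex5, the receptor that imports peroxisomal enzymes by their C-terminal signal, averaged 2974 ± 308 for placebo and 2645 ± 234 for NBC (SD, n = 4 mice per group), and the log2 difference was -0.17 (SE 0.12).

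Ppara, the fatty acid receptor that activates many genes of this pathway, gave 3 probe sets that disagreed. The brightest, 1439675_at, read 392, 564, 875 and 478 in placebo and 463, 471, 604 and 438 in NBC mice. Placebo mouse 10 was the highest and placebo mouse 6 the lowest of all 8 mice, and the log2 difference was -0.16 (SE 0.23). Probe set 1457721_at gave -0.50 (SE 0.22) with overlap. Probe set 1449051_at, whose mean over all mice fell below the filter, read 114, 156, 142 and 40.5 in placebo and 495, 417.5, 479 and 364 in NBC mice. All NBC values lay above all placebo values there. Without the filter its log2 difference was 1.83 (SE 0.32), with a limma adjusted p = 0.459. It was picked after its values were seen, and the direction of Ppara is not settled by these arrays.

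The NBC mice did not share a single pattern over the members. Of the 34 members, 23, 27, 21 and 29 lay below the placebo mean in NBC mice 5, 9, 11 and 13, where 50.4%, 51.1%, 48.0% and 51.6% of all genes did. In the same order 15, 18, 15 and 21 members lay below all 4 placebo mice (44.1%, 52.9%, 44.1% and 61.8%), where 26.7%, 24.0%, 22.5% and 28.6% of all genes did. NBC mouse 13 had the lowest signal of all 8 mice for 10 members (29.4%, against 17.8% of all genes). NBC mice 5 and 11 were together the lowest for 7 members (Cpt1a, Crat, Acadl, Echs1, Ech1, Etfdh and Pex5) and together the highest for 4 (Acsl4, Hadhb, Eci2 and Etfb). Among all genes tested they were both lowest in 8.39% and both highest in 9.95%. Over the 34 members, the deviation from the placebo mean correlated between NBC mice 5 and 11 with Pearson r = 0.559, and between mouse 9 and each of them with r = -0.429 and -0.55. These values are descriptions over genes that share an array and a subtracted placebo mean. NBC mice 5 and 11 had the highest Gapdh 3' to 5' ratios, and the part of RNA integrity in these orders was not tested.

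**Figure D4:**
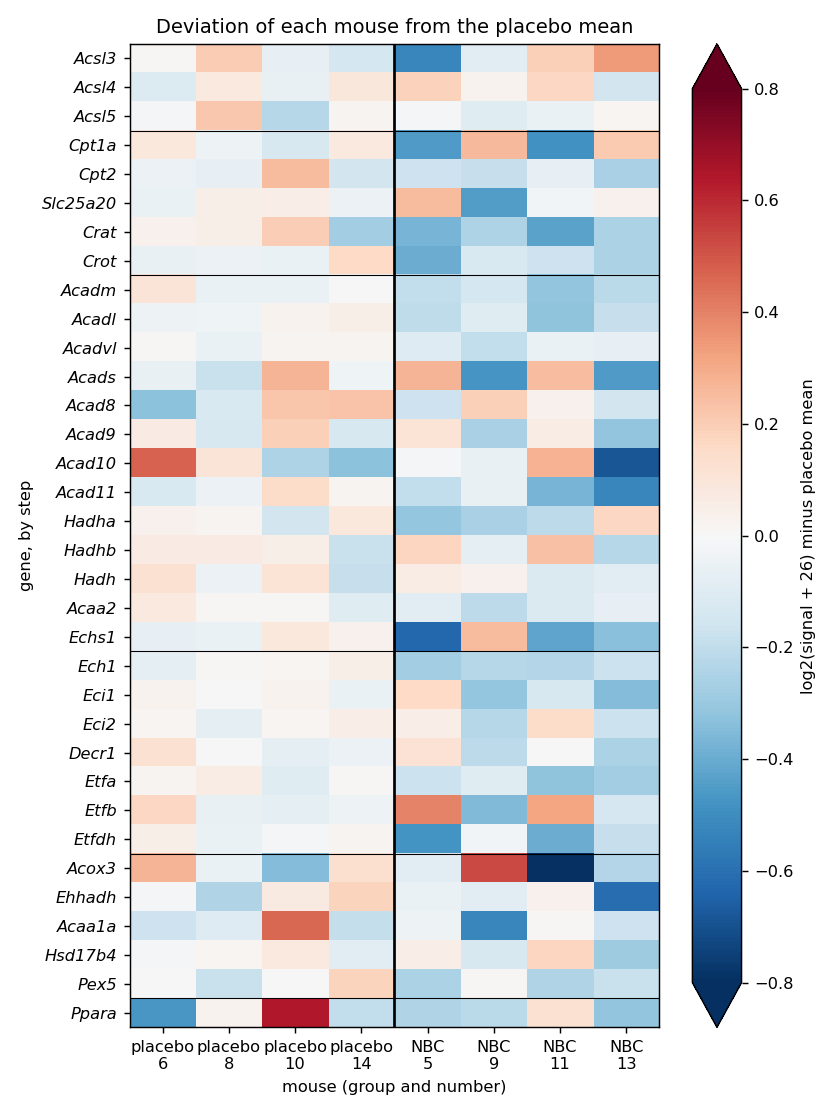
Deviation of log2(signal + 26) from the placebo mean for the 34 members (rows, by step) in each mouse (columns). Blue is lower and red higher, and values beyond 0.8 take the end colour. Rows of Acadm, Acadl, Ech1, Etfa, Crot and Crat are blue in all 4 NBC mice, while Cpt1a, Acads, Echs1 and Etfb change colour between NBC mice 5 and 11 on the one side and 9 on the other.

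Muscle transcripts stood high in NBC mice 5, 11 and 13, and muscle fibres themselves express this pathway. In NBC mouse 9, whose muscle marker sum lay inside the placebo range, 18 of 34 members lay below all placebo mice, 13 inside the placebo range and 3 above it. The 21 members outside that range were 61.8%, where 44.3% of all genes lay outside it in this mouse (24.0% below and 20.3% above). With that mouse as the whole NBC group, the median of the members was -0.125 and that of all genes -0.008. Without NBC mice 5 and 11, 30 of 34 members lay below 0, with a median of -0.187 (all genes -0.015), and 15 members (44.1%) had no overlap, where 18.8% of all genes had none among these 6 mice. That exclusion kept NBC mouse 13, whose muscle marker sum was 154512, where placebo mice reached 23708 at most. The part of muscle RNA in the lower signals was not tested. Both exclusions were chosen after the values were seen.

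Markers of fibroblasts and of macrophages had differences above 0. All 8 fibroblast markers were above 0 (median 0.25), and their summed signal was 216140 to 249455 in placebo and 263674 to 293859 in NBC mice, without overlap. All 7 macrophage markers were above 0 as well (median 0.20), but their sums overlapped (83636 to 124734 and 103305 to 176482), and 1 of the 7 had an unadjusted p under 0.05. Of the 7 white adipocyte markers, 6 lay below 0 with a median of -0.049. The 9 brown and beige adipocyte markers summed to 9203 to 16131 in placebo and 8852 to 13453 in NBC mice, and 5 of the 8 tested lay below 0. Of these, Ucp1 and Cidea, picked for description after their values were seen, lay lower by more than any member tested. Ucp1, the uncoupling protein that releases heat, read 3819, 3754, 1408 and 4061 in placebo and 838, 1199, 796.0 and 2078 in NBC mice. Its log2 difference was -1.39 (SE 0.40, limma unadjusted p = 0.00725, adjusted p = 0.73), and placebo mouse 10 lay among the NBC mice. Cidea, a lipid droplet protein abundant in brown fat, read 2099, 1722, 1188 and 1673 in placebo and 838, 862, 675 and 875 in NBC mice. Its groups did not overlap, and the log2 difference was -0.996 (SE 0.18, limma unadjusted p = 0.000367, adjusted p = 0.653). It was -0.906 with NBC mouse 9 alone. The other 6 markers tested ranged from -0.35 (Ppargc1a) to 0.30 (Prdm16), with Elovl3 (0.16) and Cox8b (0.058) also above 0. The NBC mice were far apart for both. Elovl3 read 365, 601, 605 and 2878.5 in NBC mice 5, 9, 11 and 13, where placebo mice read 470 to 945. Cox8b read 6244, 2323, 4424 and 3089 in the same mice, where placebo mice read 2804 to 4526. Dio2, which fell below the filter, differed by 0.725. Ucp1 and Cidea thus do not stand for the whole marker list. The part of cell composition in the lower beta-oxidation signals was not tested.

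A second list held 64 further genes of acyl-CoA handling, peroxisomes and their regulators. Of these, 58 had a probe set of their own and 53 were tested, 37 below 0 (69.8%, against 51.5% of all genes) and 16 above, with a median of -0.11. For 5 of them (9.43%, against 3.93% of all genes) the groups did not overlap, and all 5 lay lower in NBC mice (2.23% of all genes). Nrip1, a corepressor of nuclear receptors that holds down oxidative genes in adipocytes, read 13557, 14629, 11432 and 12064 in placebo and 9577, 10652, 9608 and 9377 in NBC mice. Its log2 difference was -0.39 (SE 0.12), with a limma adjusted p = 0.73, and its other 4 probe sets kept ranged from -0.77 (SE 0.41) to 0.37 (SE 0.16), with overlap. Acsf2, a synthetase of the same superfamily as the Acsl genes, read 627, 624, 564 and 616 in placebo and 514, 481, 385 and 154 in NBC mice, and the log2 difference was -0.75 (SE 0.31). NBC mouse 13 read far below the rest, and without it the difference was -0.39. Phyh, which starts the alpha-oxidation of phytanic acid in peroxisomes, read 10182, 9918, 10254 and 10306 in placebo and 9433, 9135, 8732 and 7169 in NBC mice, and the log2 difference was -0.25 (SE 0.12). Without NBC mouse 13, the lowest, it was -0.16. The peroxisomal import genes Pex14 and Pex2 differed by -0.19 (SE 0.11) and -0.18 (SE 0.11), and the other Pex2 probe set by -0.11 (SE 0.29).

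Of the regulators on that list, 3 were chosen for description by name, with earlier results known, and none of them passed limma's adjusted threshold. All 3 lay lower in NBC mice and do not stand for the other regulators. Esrra (-0.22, SE 0.15) and Rxra (-0.16, SE 0.13) were lower too. Ppard (-0.030, SE 0.20), Lpin1 (-0.044, SE 0.12) and Ppargc1b (0.071, SE 0.14) lay near 0. Pdk4, a kinase that restrains glucose oxidation when fatty acids are burnt, read 9885, 12703, 5273 and 9378 in placebo and 5046, 5000.1, 6492 and 6687 in NBC mice. Its log2 difference was -0.62 (SE 0.26), and placebo mouse 10 lay among the NBC mice. Ppargc1a, the coactivator of mitochondrial biogenesis, read 639.7, 408, 448 and 507 in placebo and 336, 365, 344 and 506 in NBC mice, and its log2 difference was -0.35 (SE 0.18). NBC mouse 13 stood with the placebo mice. Pparg, the receptor that directs adipocyte differentiation, averaged 16962 ± 1974 for placebo and 14416 ± 965 for NBC (SD, n = 4 mice per group), and the log2 difference was -0.23 (SE 0.12).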

How the data were processed

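The deposited values are linear signal intensities, 1 for each probe set of an array, which the submitters made with MAS5 (version not given), per the submitters' processing notes. MAS5 sets perfect-match probes against mismatch probes, which leaves dim transcripts noisy. All 8 arrays had a mean of 1500.01 once the lowest and highest 2% of values were set aside, and no further scaling was done. Of 45101 probe sets, 64 controls were left out. The platform annotation named 1 gene for 34945 of the others, several for 932 and none for 9160. No scan batch is given in the sources used here. Nothing says more of how the mice were housed or paired, so p-values measure the spread between these mice.

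Signals were taken as log2(signal + 26), which understates differences of dim transcripts, where 26 lies near the 10th percentile of all values (26.5). Probe sets with a mean log2 at or above the median of all (8.23, a signal of 275) were kept, 22519 in number. NBC was compared with placebo in limma 3.58.1 (lmFit, eBayes, no covariate, R 4.3.3) with Benjamini-Hochberg adjustment at 0.05, after the fit was tested on simulated arrays. Differences are NBC minus placebo, with moderated standard errors. Named with values were members without overlap or with an unadjusted p under 0.05, the brightest and the most different of each step, Cpt1a and Ppara. Acads, Echs1, Etfb, Acsl6 and Ucp1 and Cidea among the markers were added after their values were seen. Outside this rule, mouse values were also given for probe sets of Acaa2, Hadh and Ppara other than the brightest, and for the markers Elovl3 and Cox8b. From the second list, the genes named with values were those without overlap and Pdk4, Ppargc1a and Pparg. Markers covered skeletal muscle, white and brown adipocytes, macrophages, fibroblasts and endothelium, whose 6 markers had a median difference of 0.14 and 4 above 0. Members and lists were chosen with earlier results of these data known. Arrays correlated at 0.941 to 0.975 (Spearman) within groups, so none was a copy. The number of arrays limits the precision.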

Additional observations from a re-analysis of the deposited data

Results flagged for a closer look

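In 86 groups of 4 mice, 5 held a mouse far from the other 3, and chance gives about 1 in 20 groups. Placebo mouse 14 was highest for Crot (4710.3, the others 4056 to 4087) and lowest for Hadhb (35692, the others 41626 to 42316). Placebo mouse 6 was highest for Etfb (27623, the others 23411 to 23940.1), and placebo mouse 10 for Acaa1a (2287, the others 1449.9 to 1546). Among the regulators, NBC mouse 13 was highest for Ppargc1a (506, the others 336 to 365).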

How the results depend on the processing

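No paired analysis was possible because no mouse number occurs in both groups. Over 18 alternatives, 27 to 32 members lay below 0 and the median of the members stayed below 0. It was -0.096 with array quality weights and -0.187 without NBC mice 5 and 11. Members at an unadjusted p under 0.05 in limma numbered 6 with array weights and 7 with an intensity trend and robust prior. They numbered 1 each with median centring, quantile normalization and no filter, and 0 to 5 with 1 mouse left out. The share of all genes at that p was not computed for these settings, so these counts say nothing particular to the members. Members without overlap numbered 9 with the mean of a gene's probe sets, a setting for which the share of all genes was not computed. They numbered 15 without NBC mice 5 and 11 (where 18.8% of all genes had none) and 21 with NBC mouse 9 alone (where 44.3% had none). With 1 mouse left out they numbered 5 to 8. Probe sets called ranged from 0 to 18. With 1 mouse left out, medians ranged from -0.243 to -0.159 for the carnitine shuttle and from -0.157 to -0.091 for the mitochondrial cycle. Of 29 genes named, 17 kept their sign in every alternative, Acadm, Acadl, Crot, Crat, Ech1, Etfa, Ucp1 and Cidea among them. For genes whose groups do not overlap (Acadm, Acadl, Crot, Ech1, Etfa and Cidea here), leaving out mice cannot turn the sign. Their kept sign under those exclusions was fixed in advance and is no sign of robustness. Signs turned with 1 mouse left out for Cpt1a (-0.243 to 0.0046), Hadh (-0.088 to 0.016), Hsd17b4 (-0.12 to 0.033), Slc25a20 (-0.143 to 0.090), Ppara (-0.32 to 0.049), Acsl5 (-0.113 to 0.035), Acads (-0.224 to 0.023) and Etfb (-0.057 to 0.193). They turned without NBC mice 5 and 11 for Acsl4 (-0.059), Cpt1a (0.233) and Etfb (-0.243), with NBC mouse 9 alone for Cpt1a (0.259), Hadh (0.035), Echs1 (0.255) and Etfb (-0.352), and with array weights for Hsd17b4 (0.0073) and Acads (0.040). With the mean of all probe sets they turned for Acsl4 (-0.098) and Cpt1a (0.011), and with other probe sets for Acsl4 (-0.34 and -0.015), Cpt1a (0.086 and 0.064), Acaa1a (0.10) and Nrip1 (0.37 in 1 of 4). The cause was not tested. The exclusions of several mice, the other probe sets of Nrip1 and Pex2 and all alternatives for Ucp1 and Cidea were chosen after seeing the data, and with NBC mouse 9 alone that mouse is assumed to vary like the placebo mice. MAS5 signals near the filter limit, as for Acsl6, Acox3 and Ppara, carry the least certainty.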
